A study of Mus musculus with 60 samples.

Results

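Toll-like receptors sense microbial products and molecules released by damaged cells, and in the brain they are carried mainly by microglia, with contributions from endothelium, astrocytes and other cells. After ligand binding most of them recruit the adaptor Myd88, which assembles the Irak kinases into a complex that passes the signal through Traf6 to NF-kB and MAP kinases; the IL-1 receptor uses the same adaptor and kinases. The 10 genes described here were taken by symbol from the 770 genes of a neuroinflammation panel. They comprise the receptors Tlr2, Tlr4 and Tlr7, the co-receptor Cd14, the adaptor Myd88, the kinases Irak4, Irak1 and Irak2, the inhibitory family member Irak3 and the ubiquitin ligase Traf6. All 10 were measured in every sample with values.

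The samples were hippocampus (HPC), hypothalamus (HYP) and brain stem (BS) from 20 female Balb/C mice aged 13 weeks. Mice had received either the mammary carcinoma line 67NR, which does not metastasise and comes from 1 tumor, or DMEM vehicle into inguinal mammary glands, and were perfused and collected 25 days later at mid-dark (ZT 19) or mid-light (ZT 7), with 5 mice in each of the 4 groups. Values were analysed for 56 of 60 samples. Brain stem of mouse 8 and hypothalamus of mice 10, 12 and 32 were not analysed here, which left 3 vehicle mid-dark and 4 vehicle mid-light hypothalami and 4 vehicle mid-dark brain stems. All 4 of these samples belong to vehicle injected mice. According to the labels, samples that stood out in the raw data had been removed before the values were normalised, without naming them. The vehicle means and spreads in HYP and BS therefore rest on fewer mice, and the effect of any such removal on them was not tested. Expression is given as log2 nCounter values, in which a difference of 1 is a doubling. Each gene is read by its own probe, so levels are compared between samples and not between genes.

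The region labels were met by the markers Slc17a7, Dlx1 and Mog. Slc17a7, a transporter of cortical and hippocampal excitatory neurons, ranged from 12.65 to 13.29 in HPC against at most 9.05 in HYP and 10.63 in BS. Dlx1, a forebrain inhibitory neuron gene, was highest in HYP (7.98 to 9.04) and at most 5.87 in BS, and the myelin gene Mog was at 11.12 or more in BS against at most 10.79 elsewhere. The absorbance ratio of the RNA, a measure of its purity, was below 1.8 in 3 of 5 tumor-bearing mid-dark brain stems, in 1 tumor-bearing and 1 vehicle mid-light brain stem, and in 1 HPC sample.

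Brain region separated the members more than tumor or time of day did. Tlr2, Tlr4 and Irak4 were highest in BS, Tlr7, Myd88, Irak2 and Traf6 were highest in HPC, and Irak1 was highest in HYP. A difference was called at an adjusted p below 0.05 by limma's moderated test, with the p values adjusted over all 770 genes and the mouse as a block. Between HPC and HYP 8 of 10 members were called, beside 71.7% of all genes, with 5 higher in HPC (30.3% of all genes) and 3 lower (41.4%). Between HPC and BS 7 members were called, beside 76.6% of all genes, with 4 higher in HPC (34.9%) and 3 lower (41.7%). Between HYP and BS 7 members were called, beside 66.5% of all genes, with 1 higher in HYP (36.1%) and 6 lower (30.4%). In total calls each of these counts was near that of a panel in which most genes differed between regions. By direction HYP minus BS was the least even, with 6 of 10 members lower beside 30.4% of all genes, a difference that was not tested. The median difference of the members was 0.14 for HPC minus HYP, -0.0049 for HPC minus BS and -0.16 for HYP minus BS, against -0.05, -0.03 and 0.02 over all genes.

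**Figure D1:**
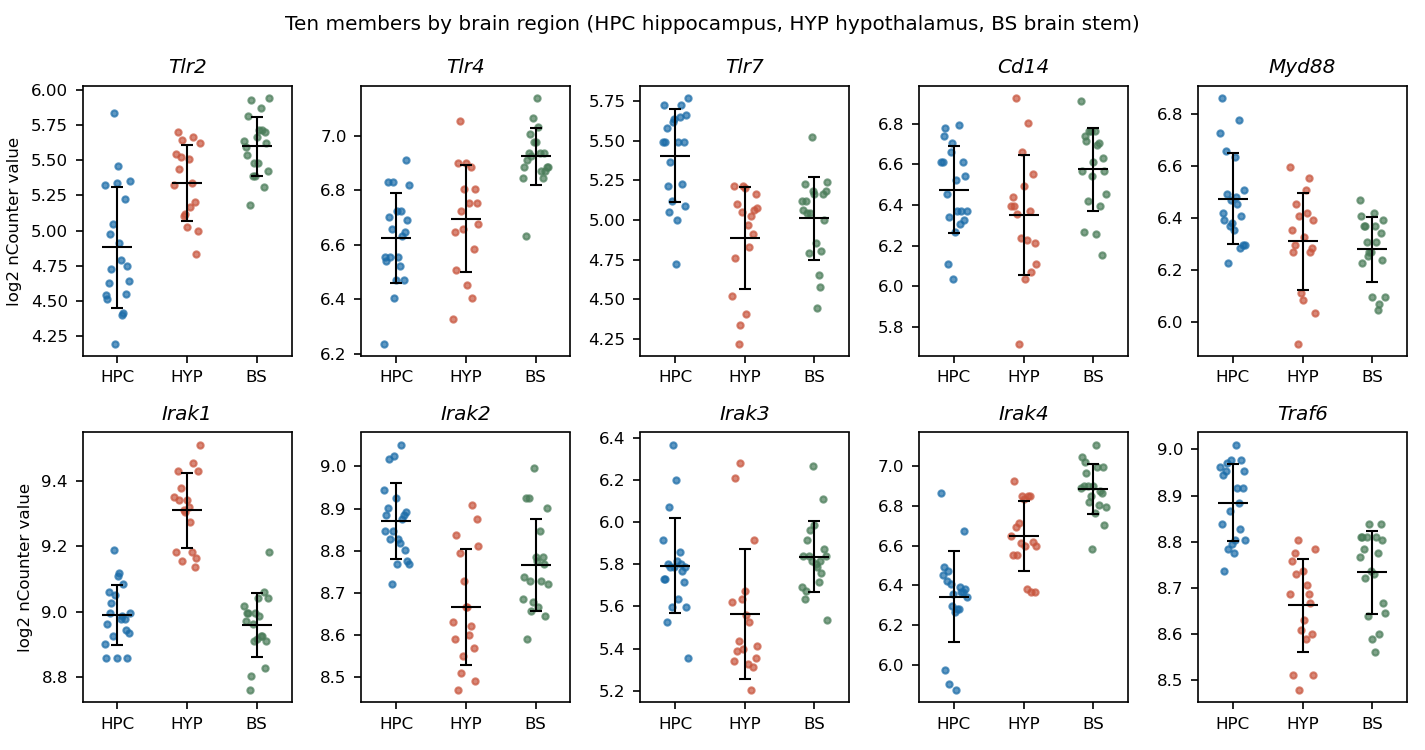
Log2 nCounter values of the 10 members in hippocampus (HPC, n = 20), hypothalamus (HYP, n = 17) and brain stem (BS, n = 19). Each point is 1 mouse, the horizontal bar is the mean and the error bar is 1 SD; each panel has its own vertical axis, which does not start at 0. Tlr2, Tlr4 and Irak4 have their highest means in BS, Tlr7, Myd88, Irak2 and Traf6 are highest in HPC, and Irak1 is highest in HYP.

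Tlr2 recognises bacterial lipoproteins. It ranged from 4.19 to 5.84 in HPC (median 4.77), from 4.83 to 5.71 in HYP (median 5.34) and from 5.18 to 5.94 in BS (median 5.62). HPC values overlapped both other regions and were the most spread (SD 0.43 against 0.27 and 0.21). The HPC mean was 4.88, below the minimum mean log2 value of 5 used in 1 alternative. The part of low signal in this spread was not tested. Within mice, Tlr2 was higher in BS than in HPC in 18 of 19 pairs, and HPC minus BS was -0.73 (SE 0.10, adjusted p = 7.39e-09). HPC minus HYP was -0.45 (SE 0.10, adjusted p = 0.000149). HYP minus BS was -0.28 (SE 0.11, adjusted p = 0.0197), a call that was lost without mouse 6 (adjusted p = 0.0502) and with only the 16 mice that had all 3 regions (adjusted p = 0.0681).

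Tlr4, the lipopolysaccharide receptor, ranged from 6.24 to 6.91 in HPC, from 6.33 to 7.05 in HYP and from 6.63 to 7.14 in BS. HPC and HYP did not differ beyond their spread (-0.07, 95% interval -0.17 to 0.03), and both lay below BS, by 0.30 for HPC (log2 difference -0.30, SE 0.05, adjusted p = 1.39e-07) and 0.23 for HYP (-0.23, SE 0.05, adjusted p = 6.36e-05). BS was above HPC in 18 of 19 mice and above HYP in 15 of 16. Cd14, which hands lipopolysaccharide to Tlr4, had medians of 6.49 in HPC, 6.37 in HYP and 6.61 in BS. Only HYP minus BS was called for Cd14 (-0.23, SE 0.07, adjusted p = 0.00529), and that call was lost without the samples whose RNA absorbance ratio was below 1.8 (-0.17, adjusted p = 0.0696).

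Tlr7, an endosomal receptor for single-stranded RNA, was highest in HPC, the region where Tlr2 was lowest. It ranged from 4.72 to 5.77 in HPC (median 5.50), from 4.22 to 5.21 in HYP (median 5.02) and from 4.45 to 5.52 in BS (median 5.06). HPC was above HYP in 15 of 17 mice (0.51, SE 0.09, adjusted p = 8.87e-07) and above BS in 17 of 19 (0.42, SE 0.08, adjusted p = 1.07e-05). HYP and BS did not differ beyond their spread in the fit to the values as deposited, but with samples centred on the 13 panel reference genes HYP was lower (-0.22, adjusted p = 0.0356).

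Irak4 is the kinase that first joins Myd88 and activates Irak1. Its values ran from 5.87 to 6.86 in HPC, 6.37 to 6.92 in HYP and 6.58 to 7.11 in BS. All 19 mice with both regions had more Irak4 in BS than in HPC, with HPC minus BS at -0.54 (SE 0.05, adjusted p = 1.01e-12). HYP lay between them, above HPC (HPC minus HYP -0.31, SE 0.06, adjusted p = 4.02e-06) and below BS (HYP minus BS -0.23, SE 0.06, adjusted p = 0.000363).

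Irak1, the kinase that carries the signal from the receptor complex to Traf6, set HYP apart. It ranged from 9.14 to 9.51 in HYP, against 8.86 to 9.19 in HPC and 8.76 to 9.18 in BS. HYP exceeded HPC in 17 of 17 mice (HPC minus HYP -0.32, SE 0.03, adjusted p = 6.24e-12) and BS in 16 of 16 (HYP minus BS 0.35, SE 0.03, adjusted p = 8.31e-13). HPC and BS did not differ beyond their spread (0.03, 95% interval -0.03 to 0.10).

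Irak2, a kinase that prolongs the same signal, and Traf6, the ubiquitin ligase downstream of it, shared the order HPC above BS above HYP. For Irak2 the medians were 8.86 in HPC, 8.74 in BS and 8.63 in HYP, and HPC exceeded HYP by 0.20 (SE 0.04, adjusted p = 3.71e-06) and BS by 0.11 (SE 0.03, adjusted p = 0.00588). The HPC to BS difference had an adjusted p of 0.0576 with only the mice that had all 3 regions. HYP minus BS for Irak2 was -0.09 (SE 0.04, adjusted p = 0.0226), a call lost without mouse 2, 4, 6 or 8 (adjusted p = 0.056, 0.0796, 0.0696 and 0.0506). For Traf6 the medians were 8.90 in HPC, 8.77 in BS and 8.69 in HYP, and HPC exceeded HYP in 16 of 17 mice (0.22, SE 0.03, adjusted p = 2.14e-08) and BS in 18 of 19 (0.15, SE 0.03, adjusted p = 1.40e-05). HYP minus BS for Traf6 stayed just outside the threshold (-0.07, SE 0.03, adjusted p = 0.051) and passed it under 15 of 29 alternative settings, 9 of them with 1 mouse left out (mouse 1, 2, 8, 12, 13, 19, 23, 29 or 30, adjusted p from 0.0167 to 0.0456).

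Irak3, which restrains Irak signalling, was lowest in HYP. Its medians were 5.79 in HPC, 5.44 in HYP and 5.82 in BS, and the HYP values were spread from 5.20 to 6.28 across most of the range of the other regions. HPC exceeded HYP by 0.25 (SE 0.07, adjusted p = 0.00126) and HYP minus BS was -0.30 (SE 0.07, adjusted p = 0.000313). HPC and BS did not differ beyond their spread (-0.04, 95% interval -0.18 to 0.09). Myd88 was higher in HPC than in HYP (0.15, SE 0.04, adjusted p = 0.0027) and BS (0.19, SE 0.04, adjusted p = 6.80e-05), in 14 of 17 and 17 of 19 mice.

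The size of several differences that involve HYP depended on the scaling. The differences followed here had an unadjusted p below 0.05 in the fit to the values as deposited. With samples centred on the reference genes, the following 10 of them moved by over 1.5 times and kept their direction. For HYP minus BS, Traf6 was then at -0.20 (adjusted p = 1.18e-05), Irak2 at -0.23 (adjusted p = 6.75e-07), Irak4 at -0.37 (adjusted p = 1.01e-06), Tlr4 at -0.37 (adjusted p = 4.38e-07), Cd14 at -0.36 (adjusted p = 0.000111) and Irak1 at 0.22 (adjusted p = 1.35e-05). For HPC minus HYP, Irak1 was at -0.21 (adjusted p = 1.27e-05), Irak4 at -0.20 (adjusted p = 0.00338), Irak2 at 0.31 (adjusted p = 3.11e-10) and Myd88 at 0.26 (adjusted p = 2.54e-05). This centring shifted the median of all genes by 0.107 for HPC minus HYP and by -0.133 for HYP minus BS. Differences with a larger p moved as well, such as that of Tlr7 given above and Cd14 for HPC minus HYP (then 0.23, adjusted p = 0.0092). The shifts exceed the smallest differences, such as that of Tlr4 for HPC minus HYP given above. The sign of such small differences therefore depends on the scaling.

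Fewer cells of a type and less RNA per cell cannot be told apart in these bulk samples. The summed level of 11 microglia markers was higher in HPC (12.99 to 13.38 on the log2 scale, median 13.16) than in HYP (12.78 to 13.12, median 12.93) or BS (12.59 to 13.11, median 12.88), and 10 of the 11 were called higher and 1 (Sall1) lower in HPC than in BS. The 5 oligodendrocyte markers were all lower in HPC than in BS, with a median difference of -1.50, and all 6 endothelial markers were lower in HPC than in BS (median -0.28). The part of these markers in the members' differences was not tested.

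The promoters of 2 members with the widest step from HPC to BS, Tlr2 and Irak4, are shown because both genes had the order HPC, HYP, BS. Each sequence is the 250 bases before the transcription start in RefSeq (GRCm38.p6), read 5′ to 3′ in the direction of the gene. Capitals mark matches on either strand to the GC box (GGGCGG, bound by Sp1), the letters AGGTCA (bound by ROR and REV-ERB receptors) and the NF-kB motif. The Tlr2 window is chr3:83841609-83841858 (minus strand) and the Irak4 window is chr15:94543410-94543659 (plus strand).
Tlr2: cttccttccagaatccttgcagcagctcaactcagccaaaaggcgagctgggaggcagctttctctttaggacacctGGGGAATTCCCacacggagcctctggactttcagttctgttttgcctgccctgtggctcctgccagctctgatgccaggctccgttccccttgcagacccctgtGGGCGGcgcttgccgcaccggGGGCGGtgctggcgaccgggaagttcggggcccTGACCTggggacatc
Irak4: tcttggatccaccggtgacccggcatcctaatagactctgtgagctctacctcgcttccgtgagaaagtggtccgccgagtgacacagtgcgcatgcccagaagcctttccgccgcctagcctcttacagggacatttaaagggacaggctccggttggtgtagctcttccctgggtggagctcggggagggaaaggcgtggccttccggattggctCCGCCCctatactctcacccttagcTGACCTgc
Both windows held AGGTCA on the reverse strand close to the start, 10 to 15 bases before it in Tlr2 and 3 to 8 in Irak4, a match found in 14% of 32841 promoter windows of this length. Both also held GC boxes, which 32.7% of windows did. GC boxes were also in windows of Irak1, Myd88, Traf6 and in 1 of 2 windows of Irak3. In Tlr2 2 overlapping NF-kB matches lay 163 to 173 bases before the start, and Irak4 had none (7.25% of windows had one). Irak1 also had an NF-kB match. A match describes the letters and is not evidence of binding. Of the 10 members, 7 had a window in the table. AGGTCA was in the windows of 4 of these 7, also in that of Irak2, which had another order of regions, and in 1 of 2 windows of Irak3.

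Time of day was the second question of the design. Over the 3 regions together Myd88 was the only member called, higher at mid-dark than at mid-light, beside 13.5% of all genes called (1 of 10 members). At an unadjusted p below 0.05 the count was 2 of 10 members beside 25.6% of all genes, the second being Cd14. The median difference of the members was 0.02, against 0.01 over all genes.

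Myd88, the adaptor shared by the receptors and the IL-1 receptor, had higher group means at mid-dark in all 6 pairs of region and tumor status. In HPC it ranged from 6.36 to 6.86 at mid-dark (median 6.56) and from 6.23 to 6.51 at mid-light (median 6.37, 10 mice each). In HYP it ranged from 6.27 to 6.6 at mid-dark (median 6.44, 8 mice) and from 5.92 to 6.41 at mid-light (median 6.27, 9 mice). In BS the ranges were 6.05 to 6.47 (median 6.37, 9 mice) and 6.07 to 6.39 (median 6.26, 10 mice). The phases overlapped in every region. They were separate in 1 of the 6 pairs, vehicle injected HYP, where the 3 mid-dark mice at 6.42, 6.51 and 6.55 lay above the 4 mid-light mice at 6.03, 6.27, 6.28 and 6.39.

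The mid-dark minus mid-light difference of Myd88 over the 3 regions was 0.18 (SE 0.04, 95% interval 0.09 to 0.27, adjusted p = 0.00277). It stayed between 0.16 and 0.20 and kept its call under all 28 alternatives, with an adjusted p from 0.000597 to 0.029. Within a region no member was called in 90 tests of phase (2.18% of all gene tests were called), and 10 of 90 had an unadjusted p below 0.05 (12.6% of all gene tests). Averaged over tumor status, Myd88 differed by 0.20 in HPC (SE 0.07, adjusted p = 0.0909) and 0.24 in HYP (SE 0.08, adjusted p = 0.148). Without mouse 19 the HPC difference was 0.23 (adjusted p = 0.0403). In tumor-bearing mice alone it differed by 0.23 in HPC (SE 0.09, adjusted p = 0.329) and 0.22 in HYP (SE 0.10, adjusted p = 0.419), and in vehicle injected mice by 0.25 in HYP (SE 0.12, adjusted p = 0.71).

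**Figure D2:**
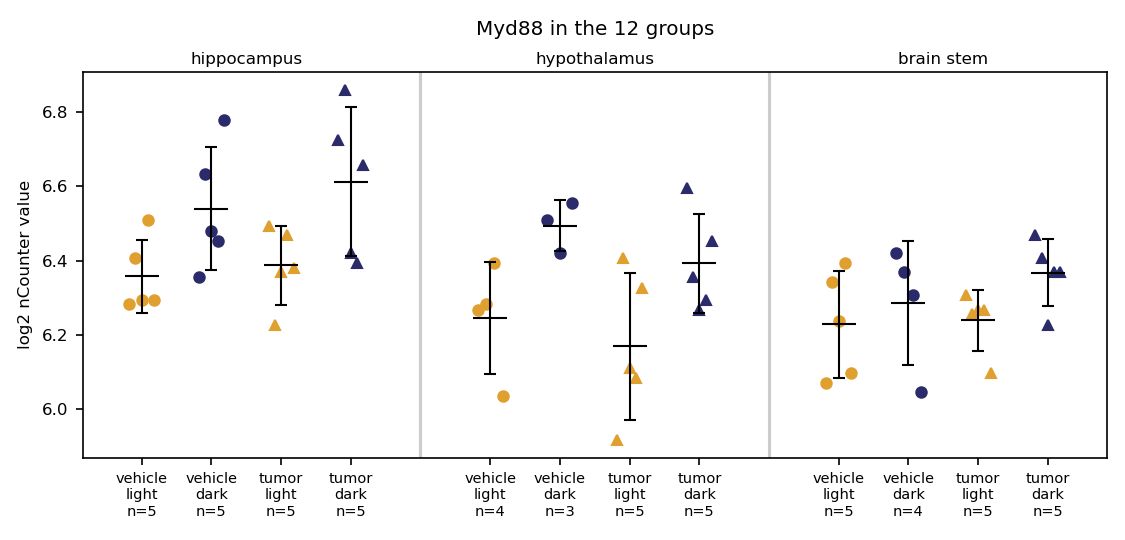
Log2 nCounter values of Myd88 in the 12 groups of region, tumor status and phase. Circles are vehicle injected and triangles tumor-bearing mice, light symbols mid-light and dark symbols mid-dark; the horizontal bar is the mean and the error bar 1 SD, and the vertical axis does not start at 0. Every mid-dark mean lies above the mid-light mean beside it, by 0.06 (brain stem, vehicle) to 0.25 (hypothalamus, vehicle).

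Microglia markers differed little by phase. Their summed level ranged from 12.59 to 13.38 at mid-dark (median 13.01) and from 12.61 to 13.37 at mid-light (median 12.94), and 1 of 11 was called, Sall1, which was higher at mid-dark. Of 6 endothelial markers 1 was called higher at mid-dark, the tight junction gene Cldn5 (0.37, adjusted p = 8.99e-07), and 1 lower, Icam2 (-0.19, adjusted p = 0.00108), and their summed level ranged from 10.61 to 11.21 at mid-dark (median 11.01) and from 10.51 to 11.10 at mid-light (median 10.86). Of 5 astrocyte markers 1 was called, Sox9, higher at mid-dark (0.13, adjusted p = 0.0282), and of 3 neutrophil markers 1, Csf3r, also higher (0.23, adjusted p = 0.014). The myelin genes Opalin (-1.11, adjusted p = 3.91e-19), Mag (-0.36, adjusted p = 6.10e-05) and Mog (-0.33, adjusted p = 0.000433) were lower at mid-dark, which was 3 of 5 oligodendrocyte markers, and the summed level of the 5 ranged from 14.08 to 16.18 (median 15.31) against 14.85 to 16.22 (median 15.44). None of 5 monocyte and macrophage, 6 T and B cell or 4 neuron markers was called. The part of these markers in the Myd88 difference was not tested.

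The Myd88 promoter window, chr9:119340019-119340268 (minus strand, GRCm38.p6, RefSeq), is shown because Myd88 was the one member called by phase. Capitals mark a GC box (GGGCGG) 50 to 55 bases before the start and the letters GAAANNGAAA, a core of interferon-stimulated response elements, 31 to 40 bases before it.
Myd88: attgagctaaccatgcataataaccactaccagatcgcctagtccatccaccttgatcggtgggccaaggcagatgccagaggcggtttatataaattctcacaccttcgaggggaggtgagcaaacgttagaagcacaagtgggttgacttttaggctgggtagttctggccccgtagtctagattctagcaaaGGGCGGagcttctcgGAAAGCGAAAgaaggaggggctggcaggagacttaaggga
The window held no E-box (CACGTG, the clock protein site found in 6.02% of windows), no D-box (TTANGTAA, 2.06%), no AGGTCA and no NF-kB motif. GAAANNGAAA was in 2.98% of all windows, and among the members' windows in that of Myd88 only. No window of the 7 members held CACGTG or TTANGTAA.

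Cd14 did not pass the adjustment over the 3 regions (mid-dark minus mid-light 0.16, SE 0.07, adjusted p = 0.117), but did without mouse 9 (0.20, adjusted p = 0.0499). Its group mean was higher at mid-dark in 6 of 6 pairs of region and tumor status, and in 5 of 6 with samples centred on the reference genes. Of these pairs only tumor-bearing HPC had an unadjusted p below 0.05. There mid-dark mice were at 6.45, 6.61, 6.61, 6.74 and 6.78 and mid-light mice at 6.03, 6.11, 6.34, 6.66 and 6.70, which overlapped (0.27, SE 0.13, adjusted p = 0.393).

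In BS 3 receptor-side and inhibitor genes had lower values at mid-dark in some groups. None passed the adjustment. For Irak3 mid-dark minus mid-light was -0.22 in tumor-bearing BS (SE 0.10, adjusted p = 0.401). Tlr4 in the same mice was at 6.63, 6.85, 6.89, 6.91 and 6.94 at mid-dark and at 6.92, 6.98, 6.98, 7.01 and 7.07 at mid-light, with an overlap of 1 mid-dark mouse (-0.15, SE 0.06, adjusted p = 0.401). The RNA absorbance ratio was below 1.8 in 3 of these 5 mid-dark and 1 of these 5 mid-light brain stems. Over the alternatives the difference ran from -0.23 to -0.09 for Tlr4 and from -0.26 to -0.15 for Irak3, never called. Tlr7 in vehicle injected BS is given with the tumor comparison, which uses the same mid-dark mice.

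**Figure D3:**
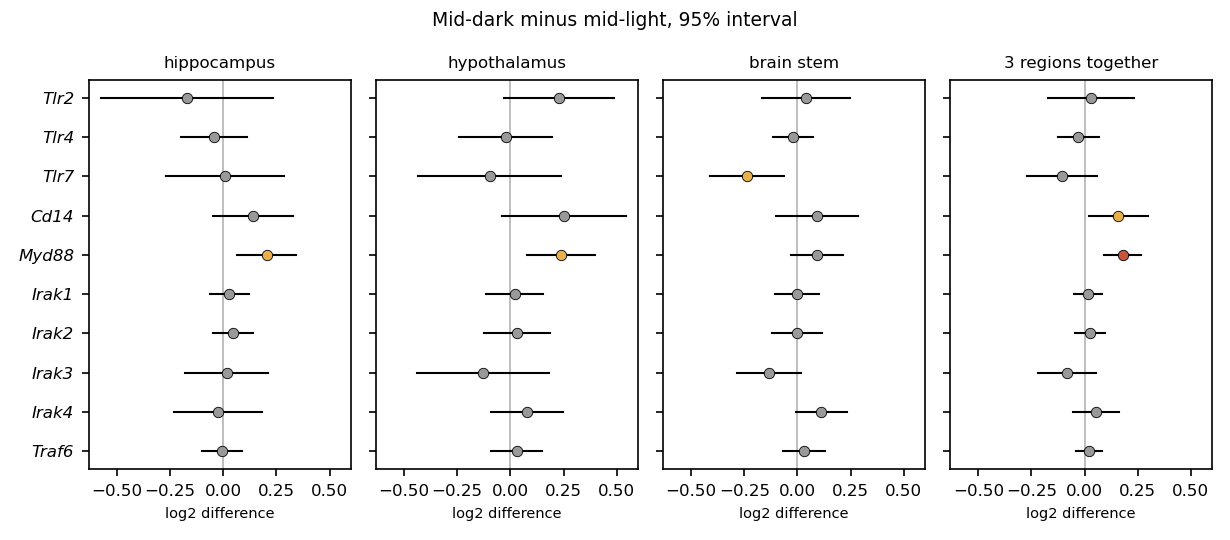
Mid-dark minus mid-light log2 difference of the 10 members in each region, averaged over tumor status, and over the 3 regions together. Points are limma estimates and lines their 95% intervals; red marks an adjusted p below 0.05, yellow an unadjusted p below 0.05 only, and grey neither. Myd88 over the 3 regions (0.18) is the only red point.

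The first question of the design was whether a peripheral mammary tumor changed expression in the brain, and no member was called in any tumor comparison. Within a region and phase 0 of 60 tests of members were called (0.217% of all gene tests) and 3 had an unadjusted p below 0.05 (5.94%). Averaged over phase 0 of 30 were called (0.607%) and 1 had an unadjusted p below 0.05 (6.67%). Over the 3 regions together 0 of 10 were called (2.34%) and 0 had an unadjusted p below 0.05 (9.48%), with differences from -0.04 to 0.12. Of these Irak3 had the smallest adjusted p, 0.557. Intervals at 95% reached at most 0.20 on either side of these estimates. Within a region and phase they reached at most 0.57 (Tlr2 in HPC, 5 mice a group). These intervals are not adjusted over genes, so they are not the limit of detection, and a call needed a difference farther from 0. Tlr7 in mid-dark BS, at 0.48, was not called (adjusted p = 0.141 by limma). Groups had 3 to 5 mice, so real differences of such sizes could go uncalled.

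Tlr7 in mid-dark BS had the smallest p of the members. Tumor-bearing mice were at 5.04, 5.06, 5.12, 5.12 and 5.22 and vehicle injected mice at 4.45, 4.58, 4.65 and 4.85. The groups did not overlap. The difference was 0.48 (SE 0.12, unadjusted p = 0.000918 by limma, adjusted p = 0.141). At mid-light the groups overlapped, with tumor-bearing mice from 4.79 to 5.52 and vehicle injected mice from 4.80 to 5.24. The vehicle injected mid-dark group had the lowest mean of the 12 groups (4.63 ± 0.17, SD, n = 4), and also lay below its own mid-light group (5.08 ± 0.18, n = 5) by 0.45 (log2 difference -0.45, SE 0.12, adjusted p = 0.0831). Averaged over the other factor, Tlr7 in BS differed by 0.27 with tumor (SE 0.08, adjusted p = 0.255) and by -0.24 with phase (SE 0.08, adjusted p = 0.13).

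These 4 vehicle mid-dark brain stems enter both Tlr7 comparisons. Without mouse 9, a tumor-bearing mid-light mouse that enters the fit through its spread alone, the tumor difference at mid-dark had an adjusted p of 0.0465 and the vehicle phase difference one of 0.0348. The phase difference also passed without mouse 1 (adjusted p = 0.0432) or mouse 2 (-0.52, adjusted p = 0.0377), and averaged over tumor status it passed without mouse 1 (-0.28, adjusted p = 0.0393). The RNA absorbance ratio of the tumor-bearing mid-dark brain stems was 1.34, 1.47, 1.68, 1.82 and 1.99, against 1.95 to 2.01 in the vehicle injected ones. Without samples below 1.8 the tumor difference was 0.51 (adjusted p = 0.396), and with the ratio as a covariate it was 0.51 (adjusted p = 0.454). Summed microglia markers in mid-dark BS ranged from 12.59 to 13.11 in tumor-bearing and from 12.77 to 12.93 in vehicle injected mice.

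**Figure D4:**
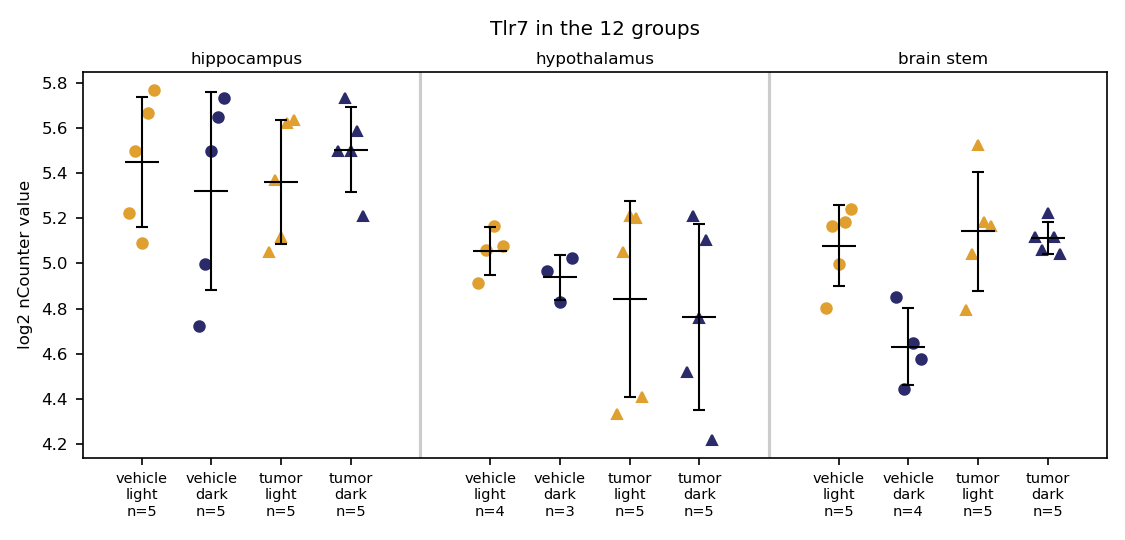
Log2 nCounter values of Tlr7 in the 12 groups of region, tumor status and phase. Circles are vehicle injected and triangles tumor-bearing mice, light symbols mid-light and dark symbols mid-dark; the horizontal bar is the mean and the error bar 1 SD, and the vertical axis does not start at 0. The 4 vehicle injected mid-dark brain stems (4.45 to 4.85) lie below the 5 tumor-bearing ones (5.04 to 5.22), and HPC is above the other regions.

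Tlr4 had the opposite sign in the same samples, without passing the adjustment. In mid-dark BS it was at 6.63, 6.85, 6.89, 6.91 and 6.94 in tumor-bearing and at 6.87, 6.94, 7.03 and 7.14 in vehicle injected mice, which overlapped (-0.15, SE 0.06, adjusted p = 0.652). Without the samples of low absorbance ratio the difference was -0.24 (adjusted p = 0.516). For Irak4 in mid-light HYP the difference was 0.23 (tumor-bearing 6.72 ± 0.12, SD, n = 5, vehicle injected 6.49 ± 0.14, n = 4, SE of the difference 0.11, adjusted p = 0.907).

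Whether the tumor difference depended on phase or region was tested directly. No member was called for the tumor by phase interaction (0 of 30, beside 0% of all gene tests), and 3 of 30 had an unadjusted p below 0.05 (4.12% of all gene tests). These were Irak3 in HPC (-0.40, SE 0.19, adjusted p = 0.696), Tlr4 in BS (-0.26, SE 0.09, adjusted p = 0.854) and Tlr7 in BS (0.42, SE 0.17, adjusted p = 0.941). For Irak3 in HPC the mid-dark and mid-light means were 5.74 and 5.92 with tumor, against 5.86 and 5.65 with vehicle. For the difference of tumor effects between 2 regions 0 of 30 were called (0% of all gene tests), and 1 had an unadjusted p below 0.05 (3.29%), Tlr7 in HYP minus BS (-0.47, SE 0.17, adjusted p = 0.999).

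**Figure D5:**
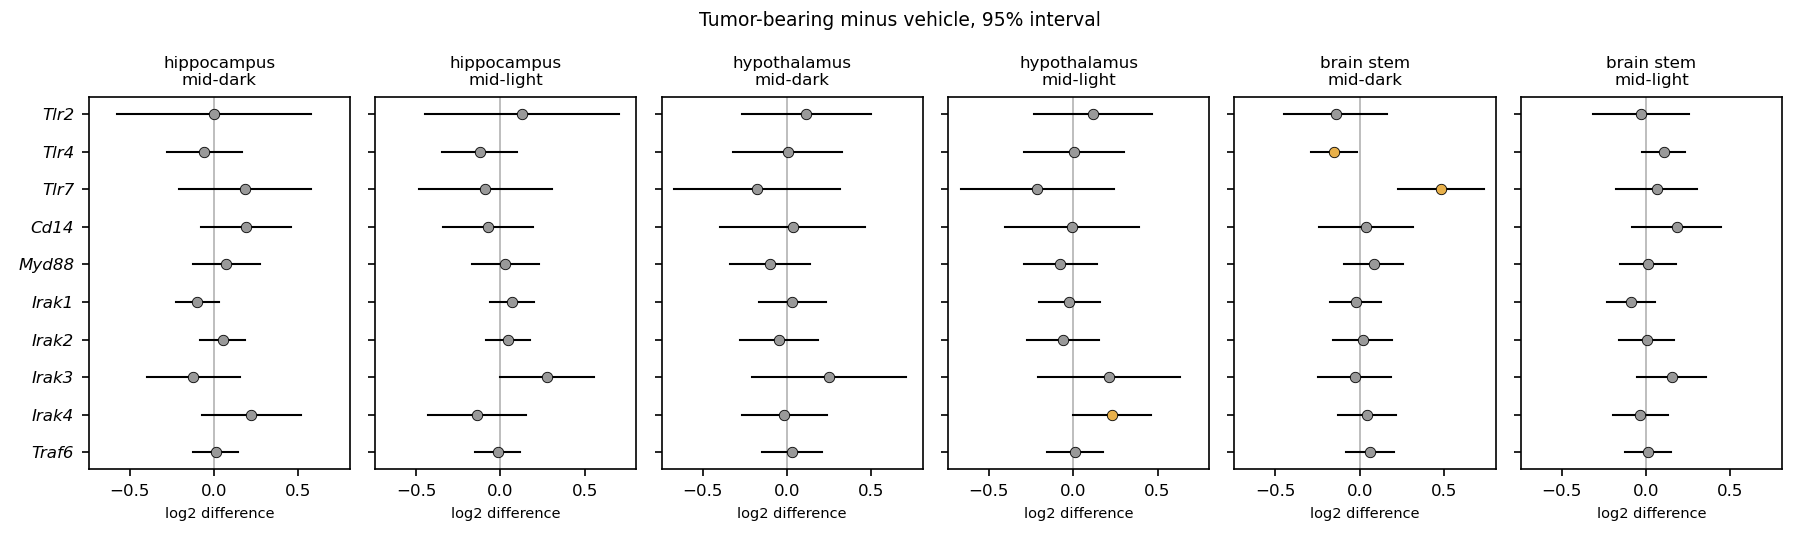
Tumor-bearing minus vehicle injected log2 difference of the 10 members in each region and phase. Points are limma estimates and lines their 95% intervals; yellow marks an unadjusted p below 0.05 and grey a larger one, and no point reached an adjusted p below 0.05. Most intervals span 0, and Tlr7 in mid-dark brain stem (0.48) lies farthest from it.

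The rest of the pathway was read from lists by role. Over the 3 regions, where 2.34% of all genes were called by tumor, 1 of 7 genes on the IL-1 side was called by tumor, Il1r1, the signalling IL-1 receptor that uses Myd88 (0.34, SE 0.07, adjusted p = 0.00191). None of 9 other innate sensors was called. Of 17 downstream kinases and factors 1 was called higher, the NF-kB inhibitor Nfkbia (0.24, SE 0.07, adjusted p = 0.0445), and of 17 induced genes 1, the prostaglandin synthase Ptgs2 (0.40, SE 0.10, adjusted p = 0.0107). The Nfkbia difference lay at mid-light, with 0.53 in BS, 0.50 in HPC and 0.36 in HYP (adjusted p = 0.147, 0.419 and 0.617 by limma). At mid-dark it was -0.04, 0.09 and -0.06 in the same order. No gene of the panel was called for the tumor by phase interaction. The median differences of the 4 lists were 0.06, 0.03, -0.0029 and -7.3e-05, against -0.01 over all genes. Microglia markers had 0 of 11 called by tumor and a median of -0.03. Endothelial markers were called in both directions. Emcn was lower with tumor (-0.21, SE 0.05, adjusted p = 0.00992) and Esam was higher (0.14, SE 0.04, adjusted p = 0.0179). No marker of another cell type was called by tumor over the 3 regions. The part of the endothelial markers in the tumor differences was not tested.

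Within regions Il1r1 and Ptgs2 were called by tumor in BS only. Averaged over phase Il1r1 was 0.60 higher there (SE 0.08, adjusted p = 0.000295), against 0.40 in HYP (SE 0.13, adjusted p = 0.365) and 0.0086 in HPC (SE 0.12, adjusted p = 0.989). Ptgs2 was 0.71 higher in BS (SE 0.13, adjusted p = 0.00713), against 0.58 in HYP (SE 0.16, adjusted p = 0.365) and -0.08 in HPC (SE 0.14, adjusted p = 0.96). In the fit to the values as deposited no gene of the panel was called for a difference of tumor effects between regions. This included Il1r1 and Ptgs2. For HPC minus BS 1 gene, not a member, was called under some alternatives. These were the minimum mean log2 value of 5, only mice with all 3 regions, and mouse as a fixed block. With 3 to 5 mice a group, real differences between regions could go uncalled. Whether the tumor differences of Il1r1 and Ptgs2 are particular to BS is therefore not settled. BS was also the region with most samples of low RNA absorbance ratio. Without the samples below 1.8, a setting added after seeing the data for these genes, the BS difference was 0.65 for Il1r1 (adjusted p = 0.01) and 0.79 for Ptgs2 (adjusted p = 0.0643), which lost its call. Over the 3 regions Il1r1 (0.36, adjusted p = 0.00471) and Ptgs2 (0.45, adjusted p = 0.00626) were then called and Nfkbia was not (0.26, adjusted p = 0.0501).

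By phase the downstream list had 7 of 17 called, beside 13.5% of all genes, with 6 higher and 1 lower at mid-dark. Irf3, which induces type I interferon, was 0.30 higher (SE 0.03, adjusted p = 1.03e-09), the AP-1 subunit Jun 0.21 higher (SE 0.05, adjusted p = 0.00133) and the NF-kB activating kinase Ikbkb 0.14 higher (SE 0.03, adjusted p = 0.00282). Nfkbia was lower (-0.24, SE 0.07, adjusted p = 0.0125). No gene of the other 3 lists was called by phase.

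By region the lists had calls in both directions. Between HPC and BS 34.9% of all genes were higher in HPC and 41.7% lower. Of 7 genes on the IL-1 side 3 were higher and 2 lower in HPC than in BS, led by Il1r1 (1.94, SE 0.07, adjusted p = 4.89e-29). Of 9 sensors 4 were higher and 4 lower, of 17 downstream genes 7 were higher and 5 lower, and of 17 induced genes 4 were higher and 5 lower. In HPC against HYP, where 30.3% of all genes were higher and 41.4% lower, the counts were 3 and 1, 4 and 3, 6 and 4, and 4 and 4 in the same order of lists. In HYP against BS (36.1% higher and 30.4% lower) they were 0 and 3, 3 and 2, 7 and 4, and 4 and 3. With 7 to 17 genes a list, nothing is read from the distance of these counts to the shares of the panel.

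Mouse to mouse, the members did not move as 1 block. Over the 56 deviations from the means of their groups, which share mice and the panel normalization, the pairs ran from r = -0.36 (Tlr2 and Tlr7) to r = 0.41 (Tlr7 and Cd14). The genes most like each member by this measure were for Tlr2 Cdkn1c (r = 0.60), Prkcq (0.58) and Mr1 (0.58), for Tlr4 Lcn2 (0.49), S100a10 (0.46) and Spp1 (0.46), for Tlr7 Egfr (0.58), Fkbp5 (0.54) and Nfkb2 (0.52), and for Cd14 Tgm2, Ccl2 (both 0.56) and C1qa (0.53). For Myd88 they were Atg9a (0.52), Prkaca (0.45) and Rapgef3 (0.43). Atg9a had a similar value in each region (0.58 in HPC, 0.44 in HYP and 0.52 in BS), but these are parts of the same samples by which it was picked. Irak1 was most like Tnfrsf1b (0.55), Irak2 most like Cd70 (0.50), Irak3 most like Rsad2 (0.55), Irak4 most like Npnt (0.50) and Traf6 most like Tmem144 (0.50). Other likenesses differed between regions. For Tlr2 and Cdkn1c r was 0.76 in HPC, -0.33 in HYP and 0.55 in BS, and for Tlr7 and Nfkb2 it was 0.37, 0.83 and -0.18. Every like gene was picked for having the highest r on the panel outside the members. Such picking gives a high r even among unrelated genes, and how high was not tested.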

How the data were processed

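RNA from 3 brain regions of 20 mice was assayed on the nanoString nCounter Mouse Neuroinflammation Panel. The deposited log2 values were made by the authors from nCounter counts by background subtraction, positive control and CodeSet normalization in nSolver and then quantile normalization in Partek, so each value is relative to the whole panel and equal values recur across samples. Raw counts were not used here, so depth is unknown and the number of mice limits precision. Groups came from the sample labels. Linear models (limma 3.58.1, R 4.3.3) were run per region with 4 group means, and over regions with 12 group means and the mouse as a random block (mouse numbers mark the same animal; consensus correlation 0.14), and p values were adjusted by Benjamini-Hochberg across each comparison's genes. Folds and tests were printed for members with an unadjusted p below 0.05 and for pathway genes called, at most 4 a list. The script was tested on simulated data. Promoters were searched in Python 3.11.15 and plots drawn with matplotlib 3.10.9. The members and lists were chosen with earlier results of these data known. Alternatives were ordinary p values, a variance trend, a minimum mean log2 value of 5, reference gene centring, RNA absorbance limits, normalization within regions, only the 2 groups compared, other treatments of the mouse block, only mice with all 3 regions and each mouse left out.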

Additional observations from a re-analysis of the deposited data

Results flagged for a closer look

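In 9 of 110 sets of a member and a group with 4 or 5 mice, 1 mouse stood far from the rest by Dixon's test at 95%, which chance gives in about 1 in 20 sets. Cd14 was 6.92 in the hypothalamus of tumor-bearing mid-dark mouse 19, against 6.36 to 6.44 in the others, and 6.26 in the brain stem of vehicle mid-dark mouse 12, against 6.69 to 6.77. Myd88 was 6.10 in the brain stem of tumor-bearing mid-light mouse 29, against 6.26 to 6.31. Irak1 was 9.16 in the hypothalamus of tumor-bearing mid-light mouse 1, against 9.30 to 9.34, and 8.76 in the brain stem of tumor-bearing mid-dark mouse 23, against 8.97 to 9.02. Irak3 was 5.92 in the hypothalamus of vehicle mid-light mouse 6, against 5.31 to 5.41. Irak4 was 6.58 in the brain stem of tumor-bearing mid-light mouse 13, against 6.82 to 6.90, 6.67 in the hippocampus of vehicle mid-light mouse 10, against 6.34 to 6.38, and 5.87 in the hippocampus of vehicle mid-dark mouse 8, against 6.27 to 6.39. No mouse appeared more than once.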

How the results depend on the processing

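Of the 43 differences of members with an unadjusted p below 0.05, 23 were called. Under the alternatives these 43 gave 1221 values, of which 1191 kept their direction and side of the threshold, 8 lost and 22 gained a call, and 0 changed direction. Differences picked by a small p were unlikely to change direction from the start, so this 0 says little. The directions of the members' other differences were not counted. When mice were left out singly, the count of members called for phase within a region ranged from 0 to 2, for tumor within a region and phase from 0 to 1, for phase over the 3 regions from 1 to 2 and for region from 20 to 23. The other counts, for tumor averaged over phase, tumor over the 3 regions and both interactions, were 0 under every alternative run. Without the replicate block the counts over regions were 22, 0, 1 and 0, as with it, and Myd88 differed by 0.18 between phases (adjusted p = 0.000597). With mouse as a fixed block the region and tumor by region counts were 22 and 0. Centring on the reference genes shifted the median of all genes by 0.107 for hippocampus minus hypothalamus and by -0.133 for hypothalamus minus brain stem, and added calls for Cd14 (hippocampus minus hypothalamus 0.23, adjusted p = 0.0092), Tlr7 and Traf6. With only the mice that had all 3 regions, or without mouse 8, Cd14 was also called higher in hippocampus than in hypothalamus (0.19, adjusted p = 0.0336, and 0.16, adjusted p = 0.0471). The cause was not tested. The phase difference averaged over tumor status and the interaction were not run with only the 2 groups compared, since they use 4 groups.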

Other observations

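Tlr7 in hypothalamus was more spread among tumor-bearing than among vehicle injected mice. In tumor-bearing mice its SD was 0.41 (mid-dark) and 0.43 (mid-light, n = 5 each), against 0.10 (n = 3) and 0.11 (n = 4) in vehicle injected mice. At mid-light mice 1 and 29 were at 4.33 and 4.41 and the other 3 tumor-bearing mice from 5.05 to 5.21, and at mid-dark the values were 4.22, 4.52, 4.76, 5.10 and 5.21. Mice 1 and 29 also had the lowest Cd14 of their group in hypothalamus (5.72 and 6.03) and in hippocampus (6.11 and 6.03). In hippocampus Tlr7 was 5.64 in mouse 29, the highest of its group. The 3 hypothalami not analysed here were all from vehicle injected mice, and the labels say that samples standing out in the raw data had been removed. Tlr7 had a mean of 4.89 over all hypothalami, below the minimum mean log2 value of 5 used in 1 alternative. The difference in spread was noticed in these data and was not tested. Nor was the part of the missing samples or of low signal in it.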
